A study of Mus musculus with 9 samples.

Results

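The 50 genes described here encode the proteins that copy DNA in S phase. They were listed by name for their known roles, from origin licensing to chromatin assembly. No measured value set the list, but earlier results of these data were known when it was made. All 50 were found among the 47480 gene names of the count table, and all 50 were among the 16426 genes that passed a filter on low counts and were tested. RNA was sequenced from primary hematopoietic cells of C57BL/6 mice in 4 groups, which were 3 libraries of MP polysomal RNA, 2 of MP total RNA, 2 of LSK polysomal RNA and 2 of LSK total RNA. The labels call MP cells progenitor cells without spelling out the abbreviation, and call LSK cells stem cells. LSK by convention means lineage-negative, Sca-1-positive and Kit-positive marrow cells. Cells of all 4 groups were held with cycloheximide, which stops ribosomes on their messages, before lysis. Polysomal RNA was fraction 7 of a sucrose gradient, where messages carrying several ribosomes sediment, and total RNA was lysate set aside ahead of that gradient. The labels give no genotype, age or sex and do not say how many animals or sorts the libraries came from. P-values below are therefore measured against differences among these libraries only, part of which may be technical.

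DNA replication begins in G1, when the origin recognition complex, Cdc6 and Cdt1 load the Mcm2 to Mcm7 helicase onto DNA. In S phase the helicase is activated by Cdc45 and the GINS complex, primase and DNA polymerase alpha lay down primers, and polymerases delta and epsilon extend them on a sliding clamp. Many of these genes are known targets of E2F transcription factors, and hematopoietic stem cells are known to divide rarely compared with the progenitors they give rise to. In bulk samples, fewer cells in S phase and less replication message per cell cannot be told apart.

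Promoter letters were examined because E2F control is the best known feature shared by these genes. RefSeq windows of GRCm38.p6, running from 250 bases before to 50 bases after an annotated start, were matched by symbol for 42 of the 50 genes. The windows were searched on both strands for 4 spellings of an E2F-type motif, TTTCCCGC, TTTCGCGC, TTTGCCGC and TTTGGCGC, which can overlap each other on opposite strands. At least 1 spelling was present for 16 of 42 replication genes (38.1%), beside 704 of 27025 genes with a window (2.6%). A CHR-type motif, TTTGAA, known from genes of late cell cycle phases, was present for 5 (11.9%) beside 20.2% of all genes. The NF-Y-type motif CCAAT was present for 26 (61.9%) beside 41.1%. A match is a run of letters and not a shown binding site. The stretches below are examples of such matches before the start that set the RefSeq window. By the GENCODE M21 gene positions used below, those of Cdc6 and Mcm7 lie inside the gene. That of Orc1 runs across the start of the gene, with its match after it. The stretches are from the origin loader genes Orc1 and Cdc6, the helicase genes Mcm5, Mcm6 and Mcm7, and the polymerase alpha gene Pola1. Each is 60 bases in the gene's own direction, with E2F-type letters in capitals, and that of Mcm5 holds 2 overlapping matches. They lie at chr4:108579394-108579453 (Orc1, plus strand), chr11:98907987-98908046 (Cdc6, plus strand), chr8:75109334-75109393 (Mcm5, plus strand), chr1:128359719-128359778 (Mcm6, minus strand), chr5:138172015-138172074 (Mcm7, minus strand) and chrX:93632260-93632319 (Pola1, minus strand) of GRCm38.p6.
Orc1: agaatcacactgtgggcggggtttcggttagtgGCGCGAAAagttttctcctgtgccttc
Cdc6: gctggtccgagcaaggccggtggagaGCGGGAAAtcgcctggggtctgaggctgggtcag
Mcm5: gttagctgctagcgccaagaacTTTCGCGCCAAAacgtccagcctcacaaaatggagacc
Mcm6: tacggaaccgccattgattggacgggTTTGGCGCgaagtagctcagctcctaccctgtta
Mcm7: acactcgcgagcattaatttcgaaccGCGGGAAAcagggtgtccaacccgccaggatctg
Pola1: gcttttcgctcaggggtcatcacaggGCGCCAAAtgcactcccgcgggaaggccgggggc

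Total counts per library ranged from 27342343 to 34807735. Values below are CPM, counts scaled to a common library size. Pearson correlations of log2 CPM between libraries of the same group ran from 0.878 to 0.978, and between groups from 0.831 to 0.972. Ly6a, which encodes Sca-1, stood at 0.159 to 1.26 CPM in MP libraries and 50.2 to 109.6 CPM in LSK libraries. Kit, the other gene of the sort list, did not separate the populations. It stood at 1290, 1257 and 913 CPM in MP polysomal and 671 and 493 CPM in MP total libraries, against 1595 and 508 CPM in LSK polysomal and 1409 and 330 CPM in LSK total libraries, so that both LSK libraries numbered 2 were low in it. A list of 10 maturing neutrophil genes took 1.59% of counts in MP polysomal 1 and 1.37% in MP total 1, against 0.047% to 0.253% in the other 7 libraries. A list of 8 B and plasma cell genes took 0.298% in LSK polysomal 2 and 0.639% in LSK total 2, against 0.0139% to 0.094% elsewhere. Lists of 12 erythroid and 8 granulocyte and monocyte progenitor genes took 0.605% to 0.997% and 3.25% to 5.45% in MP libraries, against 0.195% to 0.385% and 0.656% to 1.05% in LSK libraries. The part of these other cells' messages in the results was not tested, and values without both MP libraries numbered 1 or both LSK libraries numbered 2 are given with each comparison.

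The 50 replication genes together took 1.61%, 1.75% and 1.79% of counts in the MP polysomal libraries and 1.31% and 1.21% in MP total, against 1.60% and 1.68% in LSK polysomal and 1.27% and 0.914% in LSK total. All 5 polysomal libraries lay above all 4 total libraries, and the MP and LSK values of polysomal RNA were close together. The Mcm2 to Mcm7 genes alone took 0.566%, 0.656% and 0.770% in MP polysomal and 0.470% and 0.422% in MP total, against 0.576% and 0.699% in LSK polysomal and 0.417% and 0.240% in LSK total. The 6 origin recognition complex genes did not follow that order. They took 0.0854%, 0.0721% and 0.0582% in MP polysomal and 0.0481% and 0.0542% in MP total, against 0.0596% and 0.0225% in LSK polysomal and 0.0631% and 0.0611% in LSK total, so that LSK polysomal 2 was the lowest library.

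**Figure D1:**
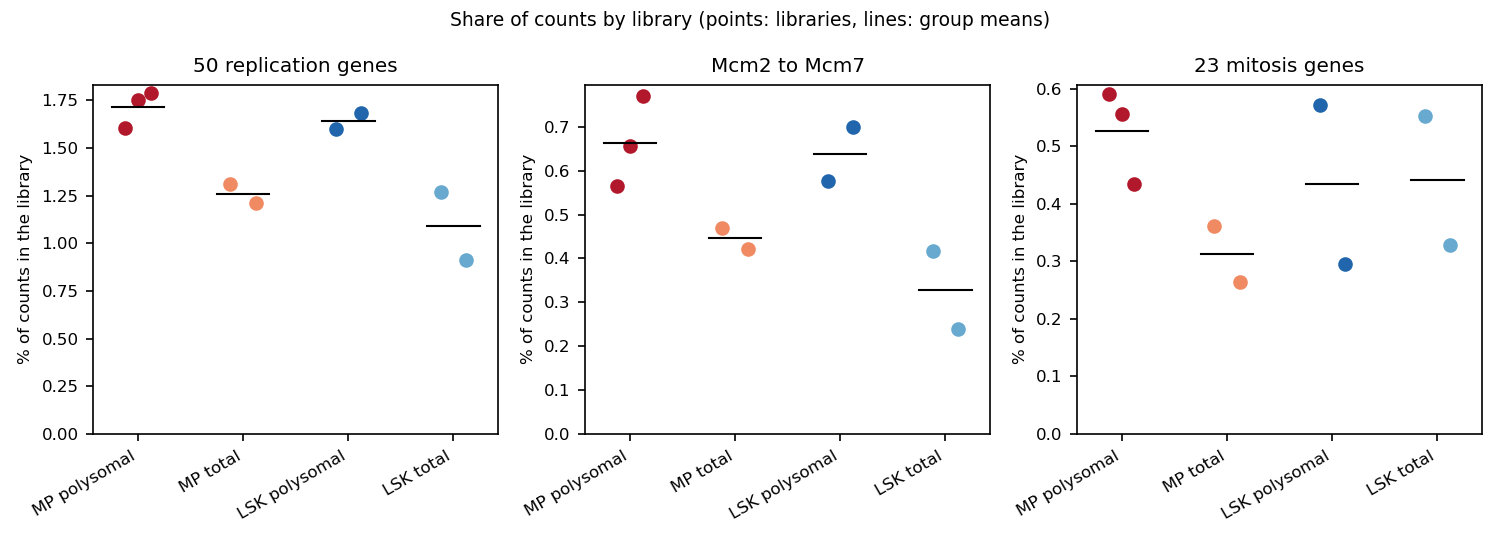
Share of a library's counts (%) taken by the 50 replication genes, by Mcm2 to Mcm7 and by 23 mitosis genes, with a point per library and a line at each group mean. The replication genes sit between 1.60% and 1.79% in polysomal libraries and between 0.914% and 1.31% in total libraries, and the mitosis genes do not separate in this way.

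Levels were compared between genes as the mean over the 9 libraries of CPM per kilobase, with every exon base of all annotated transcripts counted as length. Mcm3 had the highest level at 298, followed by Mcm7 at 270.7, Mcm5 at 254 and Mcm6 at 196, so 4 of the 6 helicase genes led the list by this length. The order depends on the length used. Rrm1 had the highest mean CPM of the 50, at 1209, but stood at 109.8 per kilobase. It has 11012 exon bases in all, against 3997 in its longest coding transcript. Pcna, the sliding clamp, stood at 155, Mcm4 at 155, and Rrm2, the small subunit of ribonucleotide reductase, at 129. The lowest were Orc4 at 7.96, Fen1 at 7.55 and Chaf1a at 4.57 CPM per kilobase. Of the exon bases of Fen1 84.2%, and of Chaf1a 52.5%, overlap those of genes on the opposite strand. How reads there were counted is not given, so these levels may be too low or too high. Raw counts of the 50 genes ran from 229, for Fen1 in LSK polysomal 2, to 66943, for Rrm1 in MP polysomal 2, so none was at the edge of detection. The steadiest genes were Tyms, thymidylate synthase, with 1.68-fold between its lowest and highest library, and Gins2, with 1.70-fold. The widest ranges were those of Cdt1 at 23.5-fold, Dut at 18.5-fold and Chaf1a at 18.3-fold. The biological coefficient of variation, a measure of the spread between libraries of a group, had a median of 0.457 over the 50 genes, beside 0.558 over all genes tested, and was highest for Cdt1 (0.879) and Dut (0.866).

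**Figure D2:**
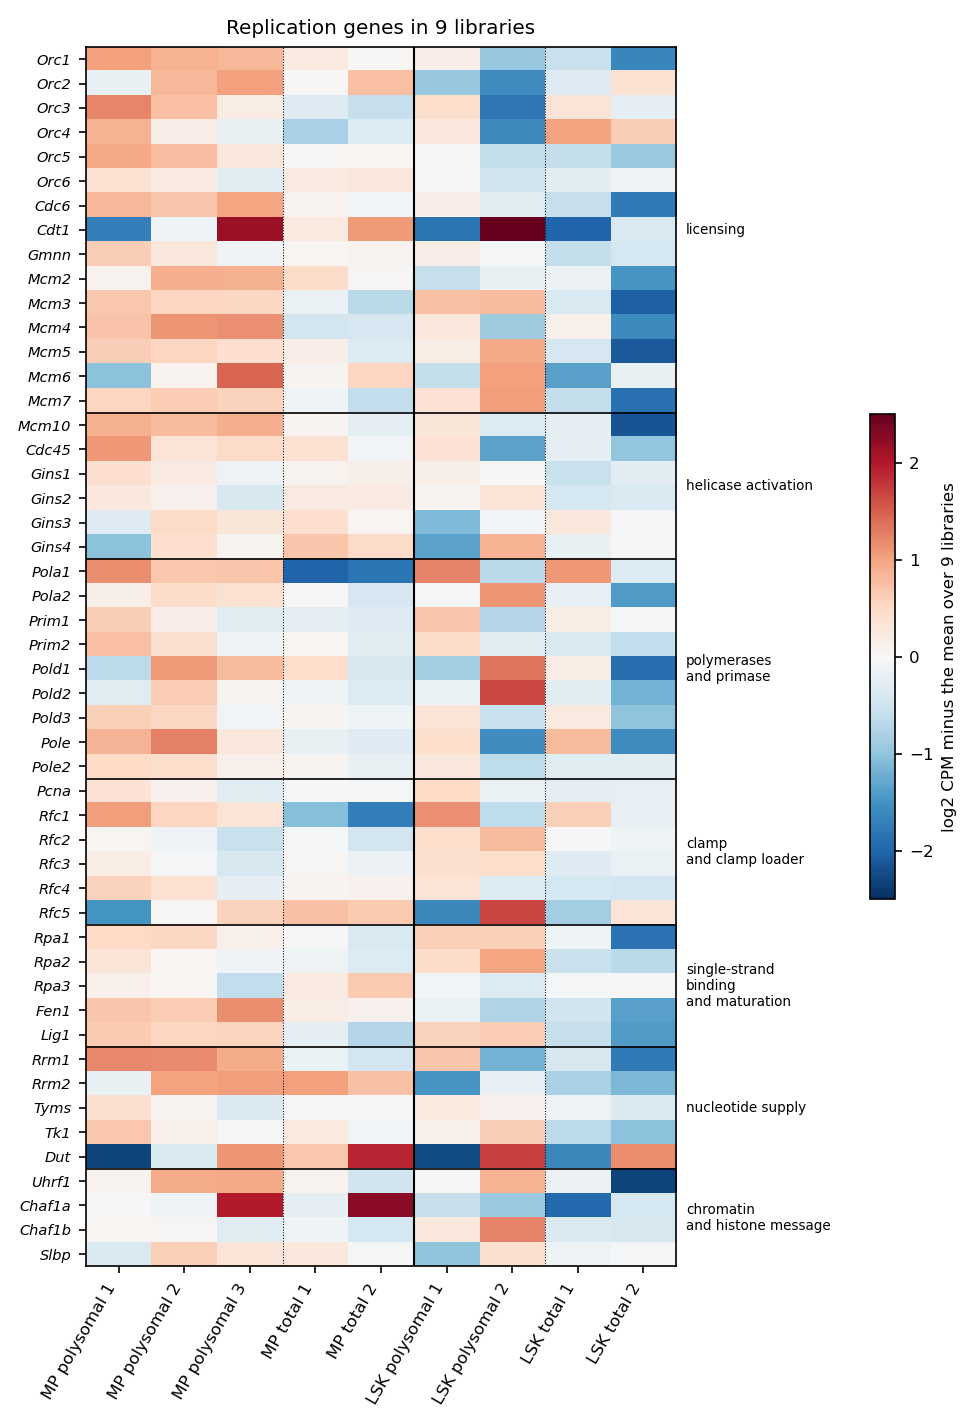
Level of each of the 50 replication genes (rows, by role) in each of the 9 libraries (columns), as log2 CPM minus the gene's mean over libraries, red above and blue below. MP polysomal libraries are mostly red and LSK total 2 mostly blue, while Cdt1, Dut, Rfc5 and Chaf1a differ as much between libraries of a group as between groups.

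In total RNA, most replication genes had higher values in MP than in LSK cells, but no single gene passed the test. The log2 change was positive for 43 of 50, with a median of 0.53, beside 49.8% of all genes and a median of −0.01. At an adjusted p under 0.05 in the quasi-likelihood test of edgeR, 0 of 50 were called, beside 1.09% of all genes, of which 0.274% were higher and 0.816% lower. At an unadjusted p under 0.05 there were 4, beside 17.1% of all genes, namely Rrm2 and Chaf1a higher and Pola1 and Rfc1 lower in MP. DESeq2 called 1 of 50, Pola1, at an adjusted p of 0.0193, beside 1471 of all 16426 genes. Both MP libraries lay above both LSK libraries for 26 of 50, beside 22.8% of all genes, and below them for 5, beside 28.5%. Those 5 were Orc3, Orc4, Pola1, Prim1 and Rfc1. LSK total 2 was the lowest of the 9 libraries for 23 of the 50 genes, a count not taken over all genes. Without LSK total 2 the median was 0.26 and 36 were positive, as they were without both LSK libraries numbered 2. Without both MP libraries numbered 1 these were 0.46 and 41. The count of 4 at an unadjusted p under 0.05 was 4, 3 and 4 without MP polysomal 1, 2 and 3. It moved in both directions where a group was left with 1 library. No share over all genes was taken for these fits. Scaled by library totals alone, the median of all genes moved to −0.36 and 33 of the 50 were positive, with their median 0.53 above that of all genes.

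With all 9 libraries, the median change between populations was smaller for these genes in polysomal than in total RNA. Without both LSK libraries numbered 2 it was not, at 0.33 in polysomal and 0.26 in total RNA. Medians of all genes were then 0.12 and 0.01. The log2 change of MP over LSK was positive for 30 of 50, with a median of 0.18, beside 48.6% and −0.03 over all genes. In edgeR's test 0 of 50 were called, beside 3.35% of all genes, of which 0.524% were higher and 2.83% lower, and 3 had an unadjusted p under 0.05, beside 17.8%. These were Orc2, Rrm2 and Fen1, all higher in MP. DESeq2 called 1, Orc2, at an adjusted p of 0.0169, beside 1624 of all 16426 genes. All 3 MP libraries lay above both LSK libraries for 11 genes, beside 15% of all genes, and below them for 6, beside 17.4%. The 11 were Orc1, Orc2, Orc5, Cdc6, Mcm2, Mcm4, Mcm10, Fen1, Rrm1, Rrm2 and Chaf1a, and the 6 were Mcm3, Rfc2, Rfc3, Rpa1, Rpa2 and Chaf1b. The median lay between 0.06 without MP polysomal 1 and 0.38 without LSK polysomal 1. It was 0.08 with 28 positive without both MP libraries numbered 1, and 0.33 with 35 positive without both LSK libraries numbered 2. The count of 3 at an unadjusted p under 0.05 was 3, 1 and 2 without MP polysomal 1, 2 and 3. It moved in both directions where a group was left with 1 library, and these fits have no share over all genes beside them.

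Most replication genes had higher values in polysomal than in total RNA of MP cells, but no single gene passed the test. The log2 change of polysomal over total was positive for 40 of 50, with a median of 0.41, beside 45.3% and −0.08 over all genes. In edgeR's test 0 of 50 were called, beside 0% of all genes, and 5 had an unadjusted p under 0.05, beside 7.57%. These were Pola1, Rfc1, Mcm4, Lig1 and Rrm1, all higher in polysomal RNA. DESeq2 called 1, Pola1, at an adjusted p of 0.0288, beside 30 of all 16426 genes, and gave no adjusted p for 6 of the 50. All 3 polysomal libraries lay above both total libraries for 21 genes, beside 16.3% of all genes, and below them for 3, Gins4, Rfc5 and Rpa3, beside 16.4%. The MP total libraries enter this comparison and that of the populations in total RNA, so the values of a gene in both are not independent. The count of 5 at an unadjusted p under 0.05 was 3 without MP polysomal 1 or 3 and 2 without MP polysomal 2. It moved in both directions where a group was left with 1 library, and these fits have no share over all genes beside them. The median was 0.39 without both MP libraries numbered 1 and 0.42 without both LSK libraries numbered 2.

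In LSK cells, too, most replication genes had higher values in polysomal than in total RNA and none passed the test. The log2 change of polysomal over total RNA was positive for 42 of 50, with a median of 0.49, beside 50.8% and 0.02 over all genes. In edgeR's test 0 of 50 were called, beside 0% of all genes. DESeq2 called 0 of 50, beside 433 of all 16426 genes. In edgeR 10 had an unadjusted p under 0.05, beside 12.1%. All 10 were higher in polysomal RNA, and they were Mcm7, Lig1, Mcm3, Rpa2, Mcm5, Tk1, Chaf1b, Pold2, Pola2 and Rpa1. Both polysomal libraries lay above both total libraries for 21 genes, beside 16.2% of all genes, and below them for 4, Orc2, Orc4, Gins3 and Rpa3, beside 20.6%. The median was 0.76 without LSK total 1 and 0.35 without LSK polysomal 1. Leaving out both LSK libraries numbered 2, or both MP libraries numbered 1, gave 0.50 each time. The count of 10 at an unadjusted p under 0.05 was 10, 6 and 8 without MP polysomal 1, 2 and 3. It moved in both directions where a group was left with 1 library, and these fits have no share over all genes beside them. Scaled by library totals alone, the median of all genes moved to −0.36 and 32 of the 50 were positive, with their median 0.50 above that of all genes.

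The difference between the populations in their polysomal over total ratio was tested as an interaction. It was negative for most replication genes, meaning a smaller ratio in MP, with 19 of 50 positive and a median of −0.36, beside 46.9% and −0.10 over all genes. In edgeR's test 0 of 50 were called, beside 0% of all genes. DESeq2 called 0 of 50, beside 1 of all 16426 genes. In edgeR 2 had an unadjusted p under 0.05, beside 5.29%. These were Pola1 and Orc4, both with a larger ratio in MP. The count of 2 was 1, 1 and 2 without MP polysomal 1, 2 and 3. It moved in both directions where a group was left with 1 library, and these fits have no share over all genes beside them. Without LSK total 2 the medians of the replication genes and of all genes were the same, at −0.16 each, and without MP polysomal 3 they differed by −0.05. The median was −0.0068, with 24 positive, without both LSK libraries numbered 2, and −0.30, with 21 positive, without both MP libraries numbered 1. Without LSK total 1, 10 were positive. Among the 2 genes of each role with the smallest p, Orc2 (1.51), Orc4 (2.13), Pola1 (2.73) and Rfc1 (1.77) were positive with all 9 libraries. Negative were Dut (−1.81), Rfc5 (−1.72), Pold2 (−1.27), Tk1 (−1.04), Chaf1b (−1.03), Rpa2 (−1.02), Gins4 (−0.88), Gins2 (−0.81), Chaf1a (−0.79) and Rpa1 (−0.76). Those of Dut, Rfc5, Pold2, Gins4 and Chaf1a changed sign in at least 1 alternative fit.

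**Figure D3:**
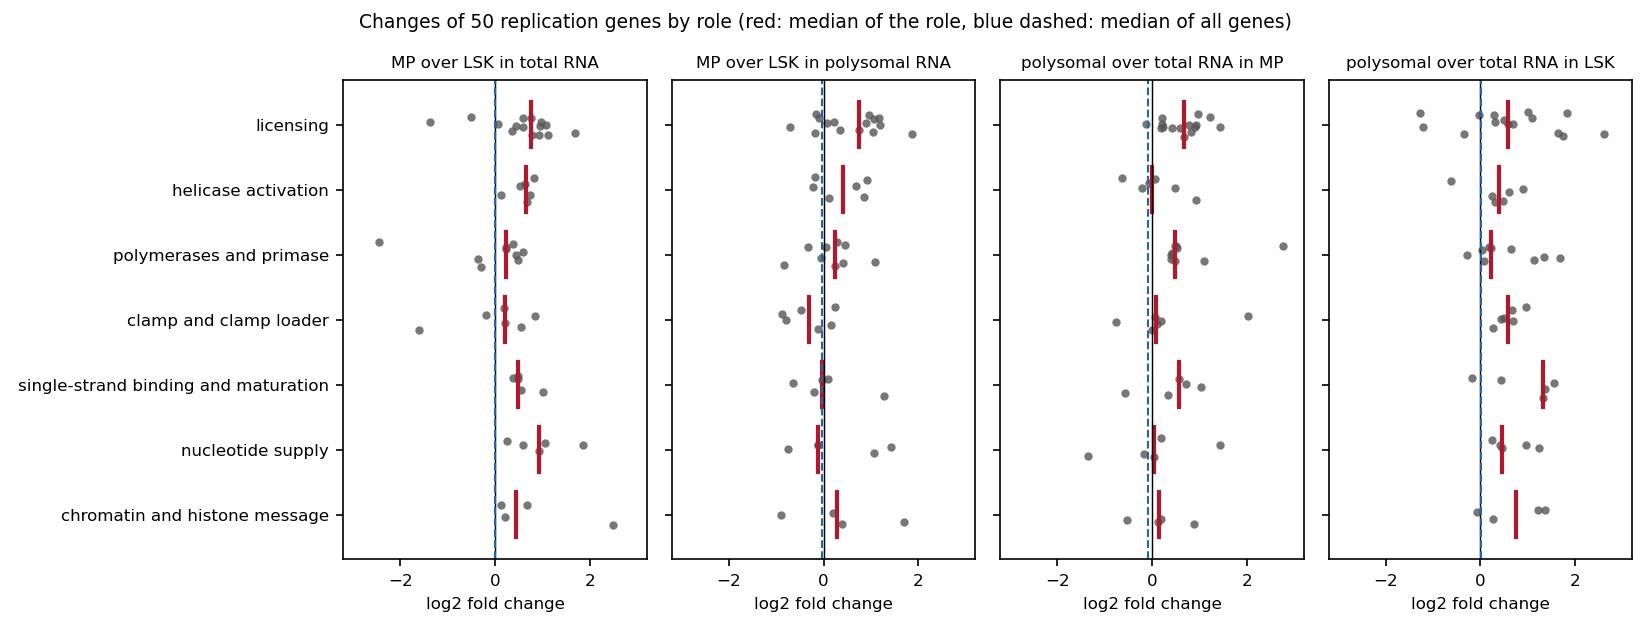
Log2 fold changes of the 50 replication genes (points) by role in 4 comparisons, with the median of each role as a red line and the median of all genes tested as a dashed blue line. In total RNA all 7 role medians are above the median of all genes, and the points of polymerases and of the clamp loader include Pola1 and Rfc1 far to the left.

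Licensing was described by 15 genes, and 11 of them were positive for MP over LSK in polysomal RNA and 13 in total RNA, with medians of 0.75 and 0.76. For polysomal over total RNA, 14 were positive in MP and 11 in LSK, with medians of 0.67 and 0.58. Orc1 stood at 89.6, 80.1 and 78.2 CPM in MP polysomal and 51.7 and 44.6 CPM in MP total libraries, against 49.1 and 22.7 CPM in LSK polysomal and 29.96 and 14.3 CPM in LSK total libraries. Orc1 is the largest subunit of the origin recognition complex. All MP libraries of a fraction lay above the LSK libraries of that fraction, by a log2 change of 1.20 (SE 0.55, adjusted p = 0.297) in polysomal RNA. CPM of Orc2 were 52.4, 107 and 122 in the MP polysomal libraries and 60.6 and 100.0 in MP total, against 31.0 and 20.4 in LSK polysomal and 47.8 and 77.5 in LSK total. Orc2 is another subunit of that complex. Both LSK polysomal libraries were below all other libraries, and MP over LSK in polysomal RNA gave a log2 change of 1.86 (SE 0.58, adjusted p = 0.119), with a 95% interval of 0.57 to 3.16. Of the exon bases of Orc2, 29.8% overlap those of Nif3l1 on the opposite strand, and how reads there were counted is not given.

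Orc4 stood at 95.6, 58.5 and 45.9 CPM in MP polysomal and 29.7 and 40.8 CPM in MP total libraries, against 62.2 and 17.2 CPM in LSK polysomal and 104 and 80.1 CPM in LSK total libraries. Orc4, a further subunit, had the lowest value in LSK polysomal 2 and the highest in LSK total 1. Both MP total libraries were below both LSK total libraries (log2 change −1.38, SE 0.68, adjusted p = 0.347), and polysomal over total gave a log2 change of 0.92 (SE 0.63, adjusted p = 0.791) in MP and −1.21 (SE 0.68, adjusted p = 0.516) in LSK, with an interaction of 2.13 (SE 0.93, adjusted p = 0.877). With each library's GC trend taken out, an alternative added after the data were seen, the change in total RNA turned to 0.32 and the interaction was 0.23. Over Orc1 to Orc6 the log2 change of MP over LSK ran from 0.35 to 1.86 in polysomal RNA and from −1.38 to 1.12 in total RNA. For polysomal over total RNA it ran from −0.12 (Orc6) to 1.23 (Orc3) in MP and from −1.28 (Orc2) to 0.70 (Orc1) in LSK. The remaining subunits ranged over the 9 libraries from 43.4 to 348 CPM (Orc3), 60.7 to 225 CPM (Orc5) and 76.0 to 140.4 CPM (Orc6).

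CPM of Cdc6 were 371, 338 and 413 in the MP polysomal libraries and 222 and 199 in MP total, against 235 and 169 in LSK polysomal and 139.5 and 61.3 in LSK total. Cdc6, which joins the origin complex to load the helicase, was lowest in LSK total 2. In both fractions every MP library was above every LSK library, with a log2 change of 1.07 (SE 0.51, adjusted p = 0.324) in total RNA. Cdt1 stood at 24.1, 73.5 and 353 CPM in MP polysomal and 94.5 and 166 CPM in MP total libraries, against 22.3 and 470.3 CPM in LSK polysomal and 19.98 and 60.6 CPM in LSK total libraries. Cdt1 brings the helicase to the origin and is destroyed in S phase. Its values spread over more than the distance between groups, with MP polysomal 3 and LSK polysomal 2 far above the others of their groups. Its change in LSK polysomal over total RNA was 2.61, the largest of the 50 there, and the adjusted p was 0.507. Gmnn encodes geminin, which binds Cdt1 and blocks further loading, and ranged from 98.5 to 228 CPM over the 9 libraries.

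The Mcm2 to Mcm7 proteins form the ring of the replicative helicase. Mcm3 stood at 1548, 1408 and 1388 CPM in MP polysomal and 862 and 607 CPM in MP total libraries, against 1611 and 1664 CPM in LSK polysomal and 738 and 234 CPM in LSK total libraries. LSK total 2 was the lowest library and all 5 polysomal libraries were above all 4 total libraries. Polysomal over total gave a log2 change of 0.98 (SE 0.51, adjusted p = 0.702) in MP and 1.75 (SE 0.56, adjusted p = 0.256) in LSK. CPM of Mcm7 were 1511, 1622 and 1556 in the MP polysomal libraries and 966 and 683 in MP total, against 1341 and 2132 in LSK polysomal and 685 and 287 in LSK total. The same held for Mcm7, with a log2 change of 0.92 (SE 0.48, adjusted p = 0.698) in MP and 1.84 (SE 0.52, adjusted p = 0.224) in LSK, the smallest p of the 50 in LSK. Mcm4 stood at 767, 1010 and 1032 CPM in MP polysomal and 343 and 352 CPM in MP total libraries, against 574 and 252 CPM in LSK polysomal and 509 and 155 CPM in LSK total libraries. Mcm4 differed from both, in that LSK polysomal 2 lay below LSK total 1. Polysomal over total gave a log2 change of 1.43 (SE 0.59, adjusted p = 0.656) in MP and 0.32 (SE 0.62, adjusted p = 0.876) in LSK. Over the 6 genes the log2 change of polysomal over total RNA ran from 0.20 (Mcm6) to 1.43 (Mcm4) in MP and from 0.30 (Mcm2) to 1.84 (Mcm7) in LSK. That of MP over LSK ran from −0.18 (Mcm3) to 1.18 (Mcm4) in polysomal RNA and from 0.07 (Mcm4) to 0.98 (Mcm6) in total RNA. The other 3 genes ranged from 249.7 to 1305 CPM (Mcm2), 208 to 1718 CPM (Mcm5) and 297 to 2096 CPM (Mcm6) over the libraries, with LSK total 2 lowest for Mcm2 and Mcm5 and LSK total 1 lowest for Mcm6. On GRCm38, in the GENCODE M21 annotation, Mcm3 lies on chromosome 1 (20802968 to 20820312, minus strand), Mcm7 on chromosome 5 (138164583 to 138172422, minus strand) and Mcm4 on chromosome 16 (15623897 to 15637400, minus strand), all as protein-coding genes.

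**Figure D4:**
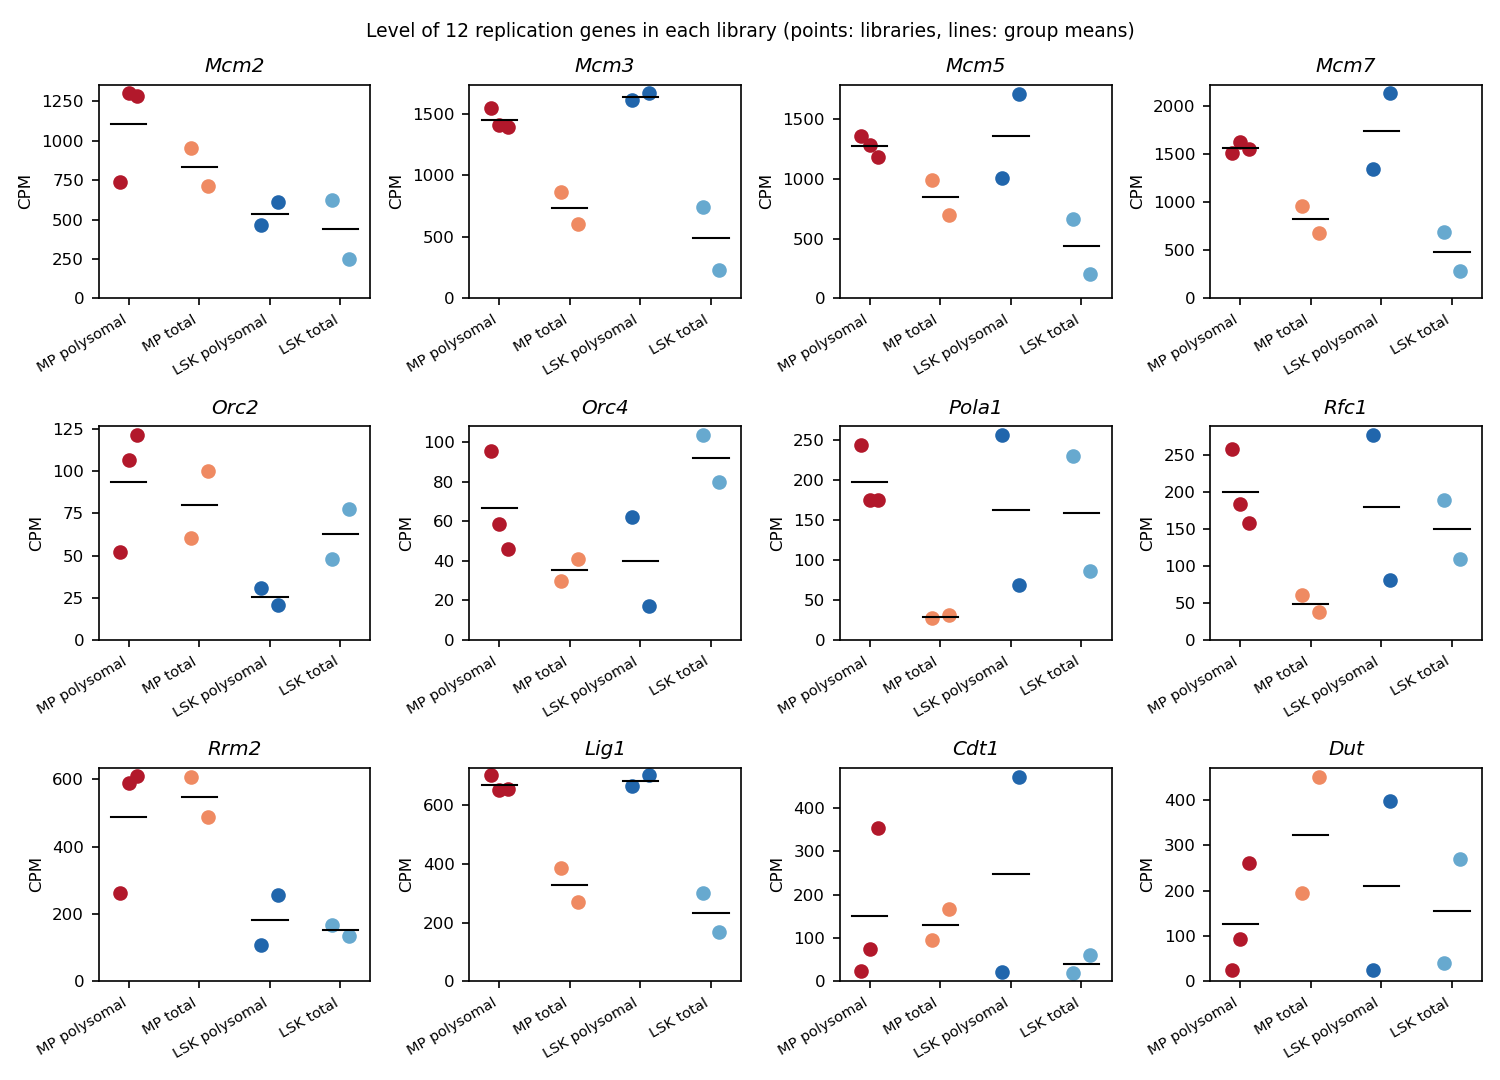
CPM of 12 replication genes in each library (points), with a line at each group mean, MP polysomal, MP total, LSK polysomal and LSK total RNA as shown on the axis. Mcm3, Mcm7 and Lig1 are higher in all polysomal than in all total libraries, Pola1 and Rfc1 are low in both MP total libraries, and the points of Cdt1 and Dut scatter within groups.

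Helicase activation was described by 6 genes, of which 4 were positive for MP over LSK in polysomal RNA (median 0.40) and all 6 in total RNA (median 0.65). For polysomal over total RNA, 3 were positive in MP (median 0.01) and 5 in LSK (median 0.40). CPM of Mcm10 were 287, 266 and 288 in the MP polysomal libraries and 161 and 131 in MP total, against 189 and 121 in LSK polysomal and 132 and 34.7 in LSK total. Mcm10 acts at origin firing and at the fork. The 3 MP polysomal libraries stood within a narrow range above all others, with a log2 change of 0.86 (SE 0.57, adjusted p = 0.491) for MP over LSK in polysomal RNA and 0.94 (SE 0.57, adjusted p = 0.75) for polysomal over total in MP. Cdc45 stood at 293, 176 and 192 CPM in MP polysomal and 181 and 132 CPM in MP total libraries, against 178 and 55.2 CPM in LSK polysomal and 118 and 69.9 CPM in LSK total libraries. Cdc45 is the partner that turns the Mcm ring into an active helicase. MP polysomal 1 was the highest and LSK polysomal 2 the lowest, and LSK polysomal 1 lay between the MP polysomal libraries (log2 change 0.92, SE 0.58, adjusted p = 0.462).

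CPM of Gins2 were 88.6, 79.6 and 56.2 in the MP polysomal libraries and 87.0 and 85.9 in MP total, against 77.2 and 93.1 in LSK polysomal and 54.8 and 57.1 in LSK total. Gins2 is a subunit of the GINS complex, the other partner of the helicase. Its libraries agreed closely in MP total and in LSK total RNA, and both MP total libraries were above both LSK total libraries (log2 change 0.63, SE 0.47, adjusted p = 0.56). Of its exon bases, 67.3% overlap those of Gse1 on the opposite strand. Gins4 stood at 37.2, 102 and 80.0 CPM in MP polysomal and 122 and 106 CPM in MP total libraries, against 30.1 and 139 CPM in LSK polysomal and 66.5 and 76.5 CPM in LSK total libraries. Gins4, another subunit, was lower in all 3 MP polysomal than in both MP total libraries (log2 change −0.64, SE 0.66, adjusted p = 0.884). The LSK polysomal libraries lay on both sides of the LSK total ones. Gins1 ranged from 38.1 to 75.1 CPM and Gins3 from 16.1 to 48.2 CPM over the 9 libraries. Over Gins1 to Gins4 the log2 change of MP over LSK ran from −0.21 to 0.69 in polysomal RNA and from 0.12 to 0.67 in total RNA, and that of polysomal over total from −0.64 to 0.07 in MP and from −0.63 to 0.60 in LSK.

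Polymerases and primase were described by 9 genes. For MP over LSK, 6 were positive in polysomal RNA (median 0.24) and 6 in total RNA (median 0.24), and for polysomal over total, 9 were positive in MP (median 0.49) and 8 in LSK (median 0.22). Pola1 stood at 243, 174 and 175 CPM in MP polysomal and 27.2 and 30.6 CPM in MP total libraries, against 256 and 68.4 CPM in LSK polysomal and 229.9 and 85.7 CPM in LSK total libraries. Pola1 is the catalytic subunit of DNA polymerase alpha. Both MP total libraries stood below the other 7, while the LSK libraries spread widely within each fraction. In total RNA it averaged 28.9 ± 2.38 CPM in MP and 158 ± 102 CPM in LSK (SD, n = 2 each). MP over LSK gave a log2 change of −2.45 (SE 0.72, adjusted p = 0.124) there, with a 95% interval of −4.07 to −0.83. Polysomal over total gave a log2 change of 2.77 (SE 0.70, adjusted p = 0.656) in MP, with an interval of 1.20 to 4.35, and 0.04 (SE 0.68, adjusted p = 0.987) in LSK. The interaction was 2.73 (SE 0.96, adjusted p = 0.877). Pola1 lies on chromosome X (93304767 to 93632155, minus strand), and its span of 327389 bases is the longest of the 50.

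CPM of Pola2 were 264, 328 and 312 in the MP polysomal libraries and 240.0 and 178 in MP total, against 235 and 516 in LSK polysomal and 208 and 89.8 in LSK total. Pola2 is the second subunit of polymerase alpha. It did not follow Pola1, as MP total RNA was not low, and LSK polysomal 2 was the highest and LSK total 2 the lowest library. Polysomal over total gave a log2 change of 1.33 (SE 0.57, adjusted p = 0.392) in LSK, and MP over LSK in total RNA 0.49 (SE 0.56, adjusted p = 0.725). Leaving out LSK polysomal 2 gave 0.67 for the change in LSK, and leaving out LSK total 2 as well gave 0.18. Pold2 stood at 145, 277 and 188 CPM in MP polysomal and 167 and 141 CPM in MP total libraries, against 159 and 563 CPM in LSK polysomal and 148 and 78.4 CPM in LSK total libraries. Pold2, a subunit of polymerase delta, had 1 library, LSK polysomal 2, far above the other 8. Polysomal over total in LSK gave a log2 change of 1.67 (SE 0.67, adjusted p = 0.356), and MP over LSK in polysomal RNA was −0.83 (SE 0.58, adjusted p = 0.518), which turned to 0.36 without LSK polysomal 2. The change in LSK was 0.50 without that library and 0.11 without both LSK libraries numbered 2. CPM of Pole were 221, 292 and 148 in the MP polysomal libraries and 108 and 98.1 in MP total, against 167 and 41.6 in LSK polysomal and 211 and 41.9 in LSK total. Pole is the catalytic subunit of polymerase epsilon, the leading strand enzyme. Both libraries numbered 2 of LSK were low and both numbered 1 were in the range of MP polysomal RNA. It gave a log2 change of 1.08 (SE 0.78, adjusted p = 0.525) for MP over LSK in polysomal RNA and 1.09 (SE 0.78, adjusted p = 0.801) for polysomal over total in MP. The other polymerase subunit genes ranged over the libraries from 81.5 to 761 CPM for Pold1, the catalytic subunit of delta, 75.7 to 231 CPM for Pold3 and 34.9 to 76.8 CPM for Pole2. The primase genes Prim1 and Prim2 ranged from 83.6 to 226 CPM and from 71.1 to 184.9 CPM, with LSK polysomal 2 lowest for Prim1 and LSK total 2 lowest for Prim2.

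The sliding clamp and its loader were described by 6 genes. For MP over LSK, 2 were positive in polysomal RNA (median −0.30) and 4 in total RNA (median 0.20), and for polysomal over total, 4 were positive in MP (median 0.08) and 6 in LSK (median 0.58). Rfc1 stood at 258, 184 and 158 CPM in MP polysomal and 60.0 and 37.7 CPM in MP total libraries, against 277 and 81.0 CPM in LSK polysomal and 189.5 and 109 CPM in LSK total libraries. Rfc1 is the large subunit of replication factor C, which opens the clamp and sets it on DNA. Like Pola1, it was lower in both MP total libraries than in the other 7. MP over LSK in total RNA gave a log2 change of −1.61 (SE 0.66, adjusted p = 0.247) and polysomal over total in MP 2.03 (SE 0.63, adjusted p = 0.656), beside 0.26 (SE 0.64, adjusted p = 0.901) in LSK. The interaction was 1.77 (SE 0.88, adjusted p = 0.877). Rfc1 lies on chromosome 5 (65261850 to 65335670, minus strand).

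CPM of Rfc2 were 529, 479 and 346 in the MP polysomal libraries and 498 and 366 in MP total, against 692 and 877 in LSK polysomal and 508 and 471 in LSK total. Rfc2 is one of the 4 small subunits. Both LSK polysomal libraries were above all others, with a log2 change of −0.80 (SE 0.39, adjusted p = 0.333) for MP over LSK in polysomal RNA and 0.68 (SE 0.44, adjusted p = 0.57) for polysomal over total in LSK. Rfc3 stood at 117, 101 and 78.1 CPM in MP polysomal and 105 and 93.0 CPM in MP total libraries, against 136 and 139 CPM in LSK polysomal and 82.1 and 91.1 CPM in LSK total libraries. Rfc3 showed the same order in LSK at a lower level, with a log2 change of −0.48 (SE 0.40, adjusted p = 0.598) and 0.67 (SE 0.45, adjusted p = 0.589) in these comparisons. The MP libraries of the 2 fractions overlapped. CPM of Rfc4 were 232, 203 and 131 in the MP polysomal libraries and 164 and 167 in MP total, against 197 and 123 in LSK polysomal and 114 and 114 in LSK total. Rfc4 was higher in both MP total than in both LSK total libraries, with a log2 change of 0.54 (SE 0.48, adjusted p = 0.634). Rfc5 stood at 59.3, 169 and 247 CPM in MP polysomal and 277 and 262 CPM in MP total libraries, against 54.9 and 527 CPM in LSK polysomal and 90.9 and 209 CPM in LSK total libraries. Rfc5 was below both MP total libraries in all 3 MP polysomal libraries (log2 change −0.77, SE 0.86, adjusted p = 0.902), and differed 9.60-fold between LSK polysomal 1 and LSK polysomal 2. Over Rfc1 to Rfc5 the log2 change of polysomal over total RNA ran from −0.77 to 2.03 in MP and from 0.26 to 0.95 in LSK. CPM of Pcna were 469, 395 and 295 in the MP polysomal libraries and 363 and 359 in MP total, against 518 and 324 in LSK polysomal and 308 and 316 in LSK total. Pcna is the clamp itself, and its range over libraries was 1.76-fold. Pseudogene copies of it, Pcna-ps1 and Pcna-ps2, are separate rows of the table and may share its reads.

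Single-strand binding and the joining of Okazaki fragments were described by 5 genes. For MP over LSK, 2 were positive in polysomal RNA (median −0.03) and 5 in total RNA (median 0.49), and for polysomal over total, 4 were positive in MP (median 0.57) and 4 in LSK (median 1.33). Lig1 stood at 702, 651 and 656 CPM in MP polysomal and 385 and 272 CPM in MP total libraries, against 666 and 702 CPM in LSK polysomal and 301 and 168 CPM in LSK total libraries. Lig1 is the ligase that seals Okazaki fragments. The 5 polysomal libraries stood together between 650.9 and 702 CPM, and all 4 total libraries were lower. Polysomal over total gave a log2 change of 1.03 (SE 0.42, adjusted p = 0.656) in MP and 1.55 (SE 0.46, adjusted p = 0.234) in LSK. The interaction was −0.52 (SE 0.61, adjusted p = 0.898). Lig1 lies on chromosome 7 (13277283 to 13311433, plus strand).

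CPM of Rpa2 were 408, 338 and 305 in the MP polysomal libraries and 297 and 257 in MP total, against 447 and 643 in LSK polysomal and 221 and 203 in LSK total. Rpa2 and Rpa1 are subunits of replication protein A, which coats unwound DNA. Both LSK polysomal libraries were the highest of the 9, and polysomal over total gave a log2 change of 0.34 (SE 0.39, adjusted p = 0.906) in MP and 1.36 (SE 0.44, adjusted p = 0.261) in LSK. Rpa1 stood at 479, 484 and 367 CPM in MP polysomal and 337 and 261 CPM in MP total libraries, against 514 and 510.1 CPM in LSK polysomal and 314 and 93.6 CPM in LSK total libraries. Rpa1 had its lowest value in LSK total 2, and polysomal over total in LSK gave a log2 change of 1.33 (SE 0.58, adjusted p = 0.401). Rpa3, the small subunit, ranged from 47.3 to 115 CPM and was below both total libraries in all polysomal libraries of each population. CPM of Fen1 were 26.1, 25.04 and 36.3 in the MP polysomal libraries and 18.3 and 17.4 in MP total, against 14.5 and 9.51 in LSK polysomal and 11.4 and 6.26 in LSK total. Fen1 is the nuclease that trims flaps on Okazaki fragments. Every MP library of a fraction was above every LSK library of it, with a log2 change of 1.28 (SE 0.53, adjusted p = 0.245) for MP over LSK in polysomal RNA and 1.02 (SE 0.57, adjusted p = 0.409) in total RNA. Of its exon bases, 84.2% overlap those of Tmem258 and Gm10143 on the opposite strand, and the strand setting of the counting is not given in the sources used here.

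Nucleotide supply was described by 5 genes, of which 2 were positive for MP over LSK in polysomal RNA (median −0.11) and all 5 in total RNA (median 0.93). For polysomal over total RNA, 3 were positive in MP (median 0.05) and 5 in LSK (median 0.45). Rrm2 stood at 261, 591 and 610.1 CPM in MP polysomal and 606 and 488 CPM in MP total libraries, against 107 and 255 CPM in LSK polysomal and 168 and 136 CPM in LSK total libraries. Rrm2 is the cell cycle-regulated subunit of ribonucleotide reductase, which makes deoxynucleotides. Every MP library was above every LSK library in both fractions, with MP polysomal 1 the lowest of MP. It averaged 547 ± 83.1 CPM in MP and 152 ± 22.5 CPM in LSK (SD, n = 2 each) in total RNA, and MP over LSK gave a log2 change of 1.85 (SE 0.60, adjusted p = 0.157) with a 95% interval of 0.51 to 3.19. In polysomal RNA it gave a log2 change of 1.43 (SE 0.56, adjusted p = 0.212) with an interval of 0.18 to 2.68. Rrm2 lies on chromosome 12 (24708241 to 24714146, plus strand).

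CPM of Rrm1 were 2227, 2212 and 1849 in the MP polysomal libraries and 862 and 695 in MP total, against 1582 and 428 in LSK polysomal and 741 and 287 in LSK total. Rrm1 is the large subunit of the same enzyme. The 3 MP polysomal libraries were above all others, and polysomal over total gave a log2 change of 1.43 (SE 0.62, adjusted p = 0.656) in MP and 0.97 (SE 0.65, adjusted p = 0.592) in LSK. The change in LSK turned to −0.41 without LSK polysomal 1. MP over LSK in polysomal RNA gave a log2 change of 1.06 (SE 0.61, adjusted p = 0.414). Tk1 stood at 315, 217 and 192 CPM in MP polysomal and 233 and 189.6 CPM in MP total libraries, against 215 and 305 CPM in LSK polysomal and 125 and 97.0 CPM in LSK total libraries. Tk1 is the thymidine kinase of S phase. Both MP total libraries were above both LSK total libraries (log2 change 0.93, SE 0.47, adjusted p = 0.358), and polysomal over total in LSK gave a log2 change of 1.23 (SE 0.47, adjusted p = 0.341). CPM of Dut were 24.3, 93.4 and 260.4 in the MP polysomal libraries and 194 and 449.7 in MP total, against 25.5 and 396 in LSK polysomal and 39.4 and 269 in LSK total. Dut, which removes dUTP, had its highest and lowest values within the same population, and its LSK polysomal libraries stood far apart. For polysomal over total in MP it gave a log2 change of −1.35 (SE 1.20, adjusted p = 0.855). Tyms, which makes thymidylate, stayed between 165 and 276 CPM in all 9 libraries.

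Chromatin assembly and histone message processing were described by 4 genes. For MP over LSK, 3 were positive in polysomal RNA (median 0.29) and 4 in total RNA (median 0.44), and for polysomal over total, 3 were positive in MP (median 0.15) and 3 in LSK (median 0.74). Uhrf1 stood at 485, 869 and 886 CPM in MP polysomal and 485 and 323 CPM in MP total libraries, against 468 and 837 CPM in LSK polysomal and 416 and 92.6 CPM in LSK total libraries. Uhrf1 brings the maintenance DNA methyltransferase to newly copied DNA. LSK total 2 was the lowest library. Polysomal over total gave a log2 change of 0.89 (SE 0.65, adjusted p = 0.807) in MP and 1.36 (SE 0.70, adjusted p = 0.476) in LSK, which was 0.17 without both LSK libraries numbered 2. CPM of Chaf1a were 26.4, 24.9 and 105 in the MP polysomal libraries and 22.8 and 127 in MP total, against 17.9 and 14.1 in LSK polysomal and 6.94 and 19.6 in LSK total. Chaf1a and Chaf1b are subunits of chromatin assembly factor 1, which places histones behind the fork. Of Chaf1a, 1 library in each MP group was over 100 CPM and the others were under 30, so the change of MP over LSK in total RNA, a log2 change of 2.50 (SE 1.02, adjusted p = 0.25), was 0.79 without MP total 2 and 3.43 without LSK total 2. Of its exon bases, 52.5% overlap those of Ubxn6 on the opposite strand. Chaf1b stood at 219, 214 and 171 CPM in MP polysomal and 199 and 156 CPM in MP total libraries, against 255 and 496 CPM in LSK polysomal and 164 and 159 CPM in LSK total libraries. Chaf1b had LSK polysomal 2 far above the rest, with a log2 change of −0.90 (SE 0.43, adjusted p = 0.315) for MP over LSK in polysomal RNA and 1.21 (SE 0.48, adjusted p = 0.355) for polysomal over total in LSK. Slbp, which binds the stem-loop of histone messages, was highest in MP polysomal 2 at 453 CPM and lowest in LSK polysomal 1 at 149 CPM.

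The GC content of a gene's longest coding transcript went along with these changes. Over the 50 genes, which share libraries and depth and have a median GC content of 48.8% beside 49.7% over all genes, the polysomal over total change in LSK had a Pearson correlation of 0.68 with GC (Spearman 0.62). In MP these were −0.18 and −0.09. Over the 15846 tested genes with a GC value, Pearson's r was 0.34 in LSK and −0.21 in MP. For the interaction it was −0.64 over the 50 genes and −0.50 over all genes, and for MP over LSK it was −0.35 in polysomal and 0.49 in total RNA over the 50 genes. The GC-poor Orc4 (36.8%) and the GC-rich Cdt1 (58.8%) stood near opposite ends of the change in LSK. In MP the change went with the length of the gene instead, at 0.57 with the genomic span and 0.48 with the longest coding transcript, beside −0.24 and 0.02 in LSK. With each library's GC trend taken out, an alternative added after the data were seen, 0 of 50 were called in each of the 5 comparisons and the median in LSK was 0.75, or 0.60 above that of all genes. The part of base composition and length in the polysomal over total differences was otherwise not tested.

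**Figure D5:**
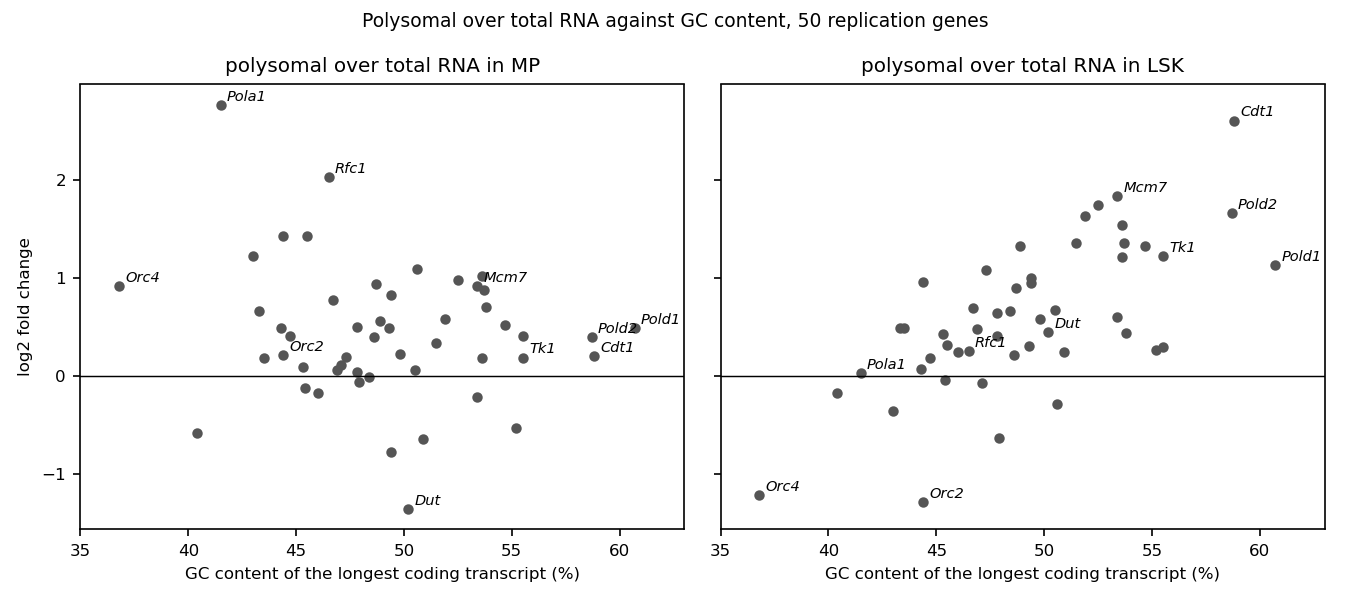
Log2 fold change of polysomal over total RNA against the GC content of the longest coding transcript (%), with a point per replication gene, in MP and in LSK. In LSK the points climb to the right (Pearson 0.68, n = 50) with Orc4 low and Cdt1 high, and in MP they do not (Pearson −0.18).

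The 16 replication genes with an E2F-type match and the 26 without one were set side by side as a description. Median log2 changes with and without a match were 0.14 and 0.20 for MP over LSK in polysomal RNA and 0.59 and 0.51 in total RNA. For polysomal over total RNA they were 0.68 and 0.28 in MP and 1.05 and 0.44 in LSK. Of the 10 genes at an unadjusted p under 0.05 in edgeR for LSK, Mcm3, Mcm5, Mcm7 and Lig1 have a match. Rpa1, Rpa2, Tk1, Chaf1b, Pold2 and Pola2 have none in their window. Outside those 10, Cdt1 and Pola1 have a match, while Rrm1, Rrm2 and Pcna have none.

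Genes of the same pathway outside the 50 were taken from fixed lists, and edgeR called 0 of them in any comparison. Of 17 firing and fork factors, 17 were positive for MP over LSK in polysomal RNA (median 0.74) and 9 in total RNA (median 0.20), and for polysomal over total 15 were positive in MP (median 0.71) and 11 in LSK (median 0.24). Among them Rif1, which delays late origins, stood at −1.94 for MP over LSK in total RNA (SE 0.62, adjusted p = 0.151) and 1.72 for polysomal over total in MP (SE 0.58, adjusted p = 0.656). Clspn, an adaptor of the fork checkpoint, stood at 1.86 for polysomal over total in MP (SE 0.59, adjusted p = 0.656). Of 17 accessory subunits and maturation factors, 12 were positive for MP over LSK in polysomal RNA (median 0.50) and 14 in total RNA (median 0.39), with 9 for polysomal over total in MP (median 0.07) and 10 in LSK (median 0.19). Of 15 nucleotide metabolism genes the numbers were 6 (median −0.21), 11 (median 0.47), 9 (median 0.30) and 9 (median 1.21) in the same order. Cad, which starts pyrimidine synthesis, stood at 2.38 for MP over LSK in total RNA (SE 0.85, adjusted p = 0.19) and 2.34 for polysomal over total in LSK (SE 0.85, adjusted p = 0.307). Of 27 regulators of the G1 to S step, they were 16 (median 0.32), 19 (median 0.36), 11 (median −0.21) and 14 (median 0.17). E2f2, an activator E2F gene, stood at 2.14 for MP over LSK in total RNA (SE 0.71, adjusted p = 0.166). Cdkn1c, which encodes the cell cycle inhibitor p57, stood at 0.133 and 0.519 CPM in MP total libraries. In LSK total libraries it stood at 0.467 and 21.0 CPM, so that LSK total 2 alone set its difference in total RNA. In polysomal RNA it stood at −3.47 for MP over LSK (SE 1.43, adjusted p = 0.239). CPM there were 1.49 and 1.25 in LSK, against 0.137, 0 and 0.223 in MP.

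The replication genes differed in their medians from a list of 23 mitosis genes, whose products act after S phase. For MP over LSK in polysomal RNA, 30 of 50 replication genes were positive with a median of 0.18, beside 19 of 23 mitosis genes and 0.55. In total RNA 43 of 50 were positive with a median of 0.53, beside 10 of 23 and −1.28. Polysomal over total RNA had medians of 0.41 in MP and 0.49 in LSK for the replication genes, beside 1.30 and 0.14 for the mitosis genes, and the interaction had medians of −0.36 and 1.37. The difference between the lists was not tested. Top2a, the topoisomerase of mitotic chromosomes, stood at 2.63 for polysomal over total in MP (SE 0.84, adjusted p = 0.656). Ncapg, a condensin subunit, had an interaction of 3.64 (SE 0.88, adjusted p = 0.877), with 1.90 for MP over LSK in polysomal RNA (SE 0.61, adjusted p = 0.13).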

How the data were processed

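Total RNA and polysomal RNA (sucrose gradient fraction 7 of 10, after 100 ug/ml cycloheximide for 10 min) were isolated by Trizol and made into libraries by SMARTer amplification, per the labels' protocols. Raw counts for each gene symbol were deposited by the authors. A second table of values on a log2-like scale, deposited by the authors with a floor of 3.73, served only as an alternative. Per the submitters' processing notes, bcl2fastq, STAR, featureCounts and DESeq2 were used with mm10 and GRCm38. No version, annotation or strand setting is given in these notes. Reads where genes on opposite strands overlap may have been counted together or left out. Groups and numbers come from the sample titles.

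The filter (edgeR 4.0.16 in R 4.3.3, filterByExpr) required a minimum count of 10 and a minimum total of 15, and CPM use TMM-scaled library sizes, by the trimmed mean of M-values. Quasi-likelihood models had 1 mean for each of the 4 groups and used all 9 libraries together, with 5 residual and 4.58 prior degrees of freedom. They gave 5 two-sided comparisons, with Benjamini-Hochberg adjustment over all 16426 genes and a threshold of 0.05. Exact permutation tests cannot go below p = 0.333 (2 against 2) or 0.2 (3 against 2), so none are given. Depth was similar in all libraries, so the spread between libraries set the precision, and a gene that missed the threshold is not shown to be unchanged.

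DESeq2 1.42.0, limma 3.58.1 on the normalized table, other scalings, no filter, the compared groups alone, a replicate block, each library left out and pairs of libraries left out were tried as alternatives. Lengths, GC content and gene positions are those of GRCm38 in GENCODE M21, matched by symbol for all 50 genes, and promoter sequences are RefSeq's for GRCm38.p6. In each comparison the 2 genes of each role with the smallest p were named, and each complex was given by its range. Cdt1, Pcna and the genes singled out by range, position or motif were added after their values were seen. The members and lists were chosen with earlier results of these data known. Symbols absent from the table, And1 and Pclaf, were dropped from the pathway lists.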

Additional observations from a re-analysis of the deposited data

Results flagged for a closer look

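The polysomal over total change of Orc4 had opposite signs in the populations, with all 3 MP polysomal libraries above both MP total libraries and both LSK polysomal libraries below both LSK total libraries. The difference between the changes, tested as an interaction with edgeR's quasi-likelihood test, was 2.13 (unadjusted p = 0.046, adjusted p = 0.877). It ranged from 0.23, with each library's GC trend taken out, to 3.48, without LSK polysomal 1 (adjusted p from 0.138 to 1 over the alternatives). Over all genes 5.29% had an unadjusted p under 0.05 in this test.

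The change of MP over LSK had opposite signs in the fractions for Rfc3, negative in polysomal RNA and positive in total RNA, with no overlap between the populations' libraries in either. The difference was −0.67 (edgeR, adjusted p = 0.884). The same held for Rpa2, with a difference of −1.02 (edgeR, adjusted p = 0.877). Neither passed the test of the difference.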

How the results depend on the processing

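The number of replication genes called by edgeR was 0 in each comparison as reported. With no filter on low counts it was 2 in total RNA (MP over LSK), beside 1206 of all 31421 genes. In LSK it was then 1 (polysomal over total, Cdt1), beside 547 of all genes. The 2 in total RNA were Pola1 (adjusted p = 0.0201) and Chaf1a (adjusted p = 0.0493). DESeq2 called 1 in total RNA, 1 in polysomal RNA, 1 in MP (polysomal over total) and 0 in the other 2 comparisons. Over all 16426 genes it called 1471 in total RNA, 1624 in polysomal RNA, 30 in MP, 433 in LSK and 1 for the interaction. Without both LSK libraries numbered 2, which left 1 library in each LSK group, Pola1 stood at −2.99 in total RNA. The cause of these changes was not tested. Leaving out each MP polysomal library in turn gave 0 replication genes in all 5 comparisons. Over all genes these fits also gave 0, except for 25 in polysomal RNA without MP polysomal 3. Leaving out any other library left 1 library in a group, and calls from such fits are not given.

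Scaled by library totals alone, the median log2 change was 0.18 for MP over LSK in total RNA and 0.14 for polysomal over total in LSK. Without both LSK libraries numbered 2 the median interaction was −0.0068. With each library left out in turn, medians ran from 0.26 to 0.60 in total RNA, 0.06 to 0.38 in polysomal RNA, 0.34 to 0.54 for polysomal over total in MP, 0.35 to 0.76 in LSK and −0.53 to −0.13 for the interaction. Of 70 results of named genes, 10 changed sign in at least 1 of up to 19 alternatives, and 4 were called in at least 1.

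The replicate block, which takes equal library numbers as pairs, called 0 replication genes in each comparison, and over all genes 570 in total RNA and 418 in polysomal RNA, beside 179 and 551 without it. With it the median of the replication genes was 0.36 for MP over LSK in polysomal RNA and −0.22 for the interaction. For the interaction 8 had an unadjusted p under 0.05 in edgeR's test, and no share over all genes was taken for that count. The labels do not say that numbers mark shared samples, and the deviations of same-numbered libraries from their group means had correlations of 0.283 to 0.715 in all pairs of libraries but the 3 with MP polysomal 2, which had −0.558, −0.471 and −0.083. In groups of 2 libraries the deviations mirror each other, so numbers 1 and 2 give equal correlations there. MP polysomal 3 had correlations of 0.72 with MP total 2, 0.621 with LSK polysomal 2 and 0.642 with LSK total 2. As not every same-numbered pair was over 0.1, the numbers were not taken as pairs. What libraries of different groups share was not tested.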

Other observations

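Replication genes differed between libraries of the same group to unequal degrees. The counts below were taken for these genes only, with no share over all genes beside them. Between LSK polysomal 1 and LSK polysomal 2, 21 of 50 were over 2-fold apart and 7 over 4-fold, and between LSK total 1 and LSK total 2 these numbers were 21 and 4. Between the MP total libraries they were 2 and 1. Among the MP polysomal libraries they were 8 and 0 for numbers 1 and 2, 11 and 4 for 1 and 3, and 4 and 2 for 2 and 3. The log2 difference of LSK polysomal 1 minus 2 had a Pearson correlation of −0.58 with GC content over the 50 genes (Spearman −0.62), and that of MP polysomal 1 minus 3 had −0.42 (Spearman −0.49). LSK polysomal 2 was the highest library for 14 of the 50 genes and the lowest for 8, and MP polysomal 1 was the highest for 15. Genes such as Mcm6, Cdt1, Dut and Rfc5 were low in both polysomal libraries numbered 1, while Orc3, Orc4, Pole and Rfc1 were low in LSK polysomal 2.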
